A study of Mus musculus with 6 samples.

Results

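The type I interferon response genes were followed as a set of 34 genes, namely both chains of the type I interferon receptor, the transcription factors that act below it and genes that interferon is known to induce, each taken by its gene symbol from the deposited table of 55487 genes. All 34 were listed in the table, and 33 of them passed the expression filter, with 17175 genes in all. *Oas3* did not pass it, with 4 to 11 counts per library. The table came from RNA sequencing of cartilaginous tissue of the knee joint of mice at postnatal day 6 (P6), which served to compare the transcriptome of cartilage with and without deletion of *Hbb* in chondrocytes. It held 3 libraries of wildtype mice (WT) and 3 libraries of mice with a conditional knockout of *Hbb* in chondrocytes (*Hbb*-cKO). The floxed allele was made in C57BL/6J mice around the adult beta-globin genes *Hbb-bs* and *Hbb-bt*, and the study names animals *Hbb*-cKO where this allele was combined with *Col2a1*-CreERT2, a Cre that is driven by the collagen II promoter and needs tamoxifen. The sources used here do not give which Cre and tamoxifen schedule the sequenced mice had, whether WT mice carried Cre or the floxed allele, or the sex of the mice behind each library, and the study states only that both sexes were used. The labels do not tie the libraries to separate mice, so p-values measure only the spread between these libraries.

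Type I interferons bind a receptor of the chains IFNAR1 and IFNAR2, which activates the kinases JAK1 and TYK2. STAT2 is then phosphorylated and acts with IRF9 in the complex ISGF3, which binds the interferon-stimulated response element (ISRE) in the promoters of its target genes. The products of these genes sense foreign RNA and DNA, block viral replication and feed back on the receptor, and most cells keep a low tonic level of them without infection.

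The ISRE core, a pair of GAAA repeats with any bases in the gap between them, was searched as GAAANNGAAA on both strands of RefSeq promoters (assembly GRCm38.p6), which run from 250 bases before to 50 bases after a transcription start. A RefSeq promoter was given for 25 of the 34 members, and 10 of these (40.0%) held the core, beside 1079 (3.99%) of the 27025 genes of the same promoter table. The windows of 7 members in which every match lies upstream of the start are shown because the core is the element known to be bound by ISGF3, and the matched bases are in capitals. They lie at chr4:156200865-156200906 on the minus strand for *Isg15*, chr12:26456553-26456582 on the minus strand for *Rsad2*, chr8:71537577-71537612 on the minus strand for *Bst2*, chr5:120777715-120777744 on the minus strand for *Oas3*, chr10:128270266-128270295 on the plus strand for *Stat2*, chr19:34583363-34583426 on the plus strand for *Ifit3* and chr19:34640775-34640823 on the plus strand for *Ifit1*. Each window is printed in the direction of its gene.
Isg15: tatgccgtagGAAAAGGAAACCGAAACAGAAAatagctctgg
Rsad2: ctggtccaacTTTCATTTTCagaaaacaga
Bst2: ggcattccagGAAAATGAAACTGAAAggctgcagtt
Oas3: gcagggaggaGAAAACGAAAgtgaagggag
Stat2: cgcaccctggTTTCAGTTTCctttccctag
Ifit3: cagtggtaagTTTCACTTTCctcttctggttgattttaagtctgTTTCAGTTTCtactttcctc
Ifit1: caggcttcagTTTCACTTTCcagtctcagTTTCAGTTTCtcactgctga
The *Isg15* window holds 3 overlapping matches and that of *Bst2* holds 2 that overlap, while *Ifit3* and *Ifit1* each hold 2 separate matches in the opposite orientation. A match is a description of the letters and not a measured binding site.

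Total counts ranged from 16544800 to 17475496 in the WT libraries and from 17405688 to 20969914 in the *Hbb*-cKO libraries. The unit of all levels is CPM, with library sizes normalised by TMM. The targeted genes were lower in every *Hbb*-cKO library than in any WT library, with *Hbb-bs* at 6394, 5016 and 2848 CPM in WT replicates 1 to 3 and 1606, 2257 and 2006 CPM in *Hbb*-cKO (log2 fold change -1.28, with a Benjamini-Hochberg adjusted p = 0.218 in the quasi-likelihood test of edgeR and adjusted p = 0.00165 in DESeq2). Reads of *Hbb-bs* and *Hbb-bt* can be shared. The 5 other erythroid markers in the table, which the deletion does not target, summed to 20053, 14432 and 6546 CPM in WT and 4609, 6305 and 5498 CPM in *Hbb*-cKO, also without overlap, with a log2 fold change of -1.31 for *Hba-a1* (edgeR adjusted p = 0.306, DESeq2 adjusted p = 0.0141), so that deletion and blood content cannot be told apart from the level of *Hbb-bs*. The chondrocyte markers summed to 32798 to 56424 CPM in 5 libraries and to 17379 CPM in *Hbb*-cKO replicate 1, while skeletal muscle markers summed to 21394 to 42853 CPM and exceeded them in WT replicate 3 and *Hbb*-cKO replicate 1. WT replicates 1 and 2 held no count of 4 Y-linked genes, while WT replicate 3 and the *Hbb*-cKO libraries held 1010 to 2907. *Xist*, a transcript of the inactive X, had 10430, 8739 and 2725 counts in WT and 5052, 6 and 8079 counts in *Hbb*-cKO. WT replicate 3 and *Hbb*-cKO replicates 1 and 3 thus held many counts of both kinds.

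The interferon genes separated the WT libraries from each other more than they separated the genotypes. A score was computed for each library as the mean over the 33 tested members of the log2 CPM minus the mean of the gene over the 6 libraries. It was 0.17, 0.60 and -0.37 in WT replicates 1, 2 and 3, and 0.00, -0.14 and -0.26 in *Hbb*-cKO replicates 1, 2 and 3. WT replicate 2 was thus the highest library and WT replicate 3 the lowest, and all *Hbb*-cKO libraries lay between them. The mean score was 0.13 in WT (SD 0.49, n = 3) and -0.13 in *Hbb*-cKO (SD 0.13, n = 3), a difference smaller than the SD within WT. The same score over all 17175 genes was between -0.02 and 0.02 in every library.

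Single members showed the same order. Of the 33 members, 24 (72.7%) had their highest level in WT replicate 2, where 24.5% of all tested genes had theirs. Their lowest level was in WT replicate 3 for 18 members (54.5%), beside 21.8% of all tested genes. In WT replicate 2, 30 of 33 members were above their mean over the libraries, as were 26 in WT replicate 1, 5 in WT replicate 3 and 18, 10 and 6 in the *Hbb*-cKO libraries. The 3 members below their mean in WT replicate 2 were *Eif2ak2*, *Ddx58* and *Trim25*.

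**Figure D1:**
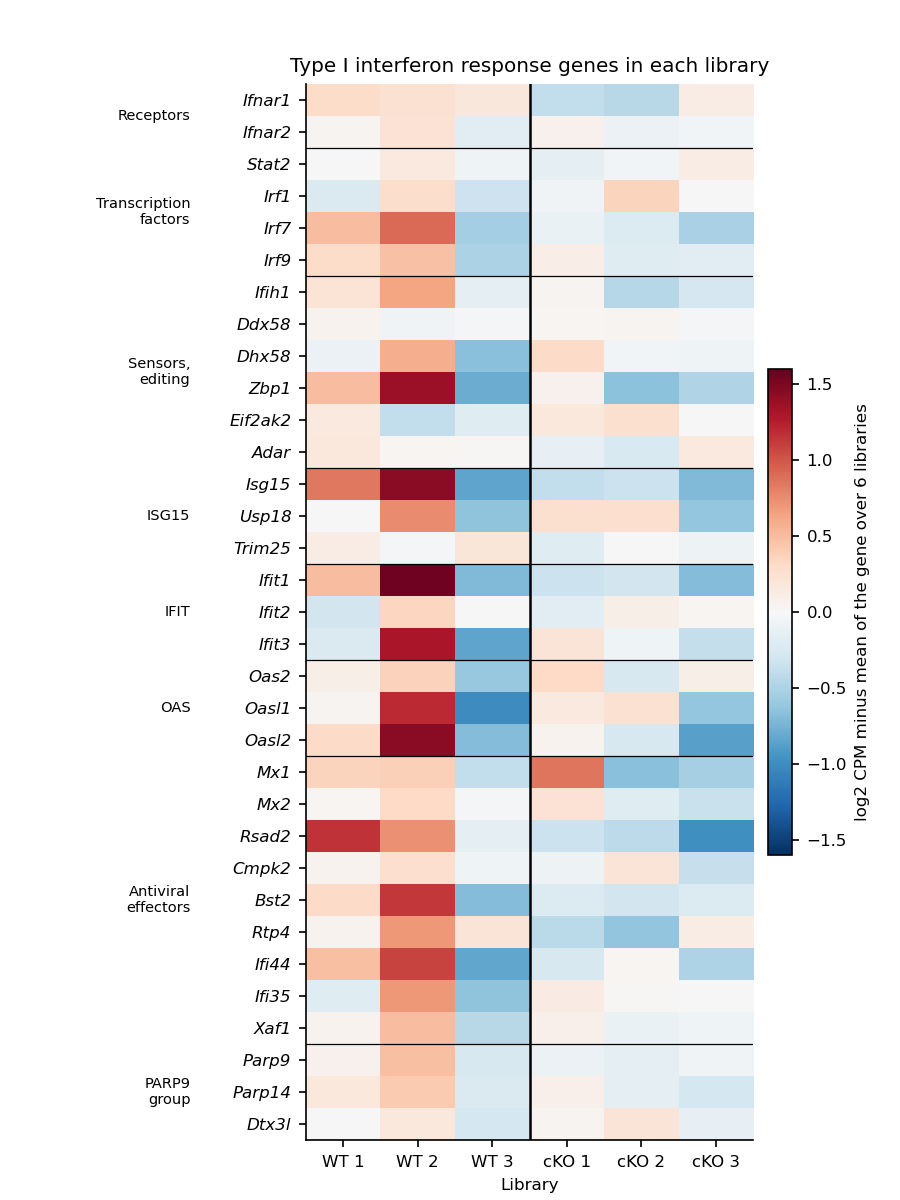
Heat map of 33 members (rows, in groups by role) in the 6 libraries (columns, replicate numbers 1 to 3 of WT and of Hbb-cKO, the latter written cKO), coloured by log2 CPM minus the mean of the gene over the 6 libraries. The column of WT replicate 2 is red for 30 of 33 genes and that of WT replicate 3 is above the mean for 5 of 33.

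The members differed widely in level and in range. Per kilobase of exon, *Bst2*, which encodes the membrane protein tetherin, was the highest at 41.0 CPM per kilobase over the 6 libraries, and every library of *Bst2* was above every library of the next gene. The receptor chains *Ifnar2* and *Ifnar1* followed at 11.5 and 11.1 CPM per kilobase and could not be ordered, since their libraries overlapped. Neighbouring genes from there down to *Ifih1*, at 0.622 CPM per kilobase, also overlapped in their libraries. *Mx2*, *Ifi44* and *Mx1* had lower means, at 0.280, 0.276 and 0.248 CPM per kilobase, and *Oas3* was last at 0.0565 CPM per kilobase. The highest library of *Ifi44*, at 0.546, was still above the lowest of *Ifih1*, at 0.436. The highest library of a member exceeded its lowest by 1.08-fold for *Ddx58* up to 5.18-fold for *Oasl1*, with a median of 2.01-fold. This ratio was over 4 for 8 members, *Oasl1*, *Ifit1*, *Oasl2*, *Isg15*, *Zbp1*, *Ifit3*, *Rsad2* and *Ifi44*.

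In the comparison of genotypes, no member passed the threshold of 0.05 on the adjusted p of edgeR, where 18 of 17175 genes (0.105%) did. DESeq2 called 1 member, *Rsad2*, and 249 of 17166 genes (1.45%). At an unadjusted p under 0.05 in edgeR, 3 members were lower in *Hbb*-cKO (*Rsad2*, *Ifnar1* and *Isg15*) and 0 were higher, beside 5.22% of all genes lower and 4.89% higher. The *Hbb*-cKO and WT libraries did not overlap for 2 of the 33 tested members, *Ifnar1* and *Rsad2*, both lower in *Hbb*-cKO, where 8.96% of all genes were lower in this way, and 0 tested members were higher in this way, where 8.70% of all genes were. The log2 fold change was negative for 27 members and positive for 6, with a median of -0.22 and a range from -1.26 to 0.26, and the median over all tested genes was -0.01.

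This median rested on WT replicate 2. Without that library it was -0.01, with 18 negative and 15 positive members, and the median over all genes was 0.00. At an unadjusted p under 0.05 in edgeR, 1 member was then lower (*Rsad2*) and 1 higher (*Ifi35*), beside 5.71% and 6.78% of all genes. Without WT replicate 3, the low WT library, the median was -0.39, with 30 negative members. Under that setting 13 members had an unadjusted p under 0.05 in edgeR, all lower in *Hbb*-cKO, beside 6.57% of all genes, and the smallest adjusted p was 0.0617 (*Isg15*), while DESeq2 called 5 members, *Isg15*, *Rsad2*, *Bst2*, *Irf7* and *Ifit1*, all lower, beside 0.943% of all genes. Neither removal brought a member past the threshold in edgeR.

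**Figure D2:**
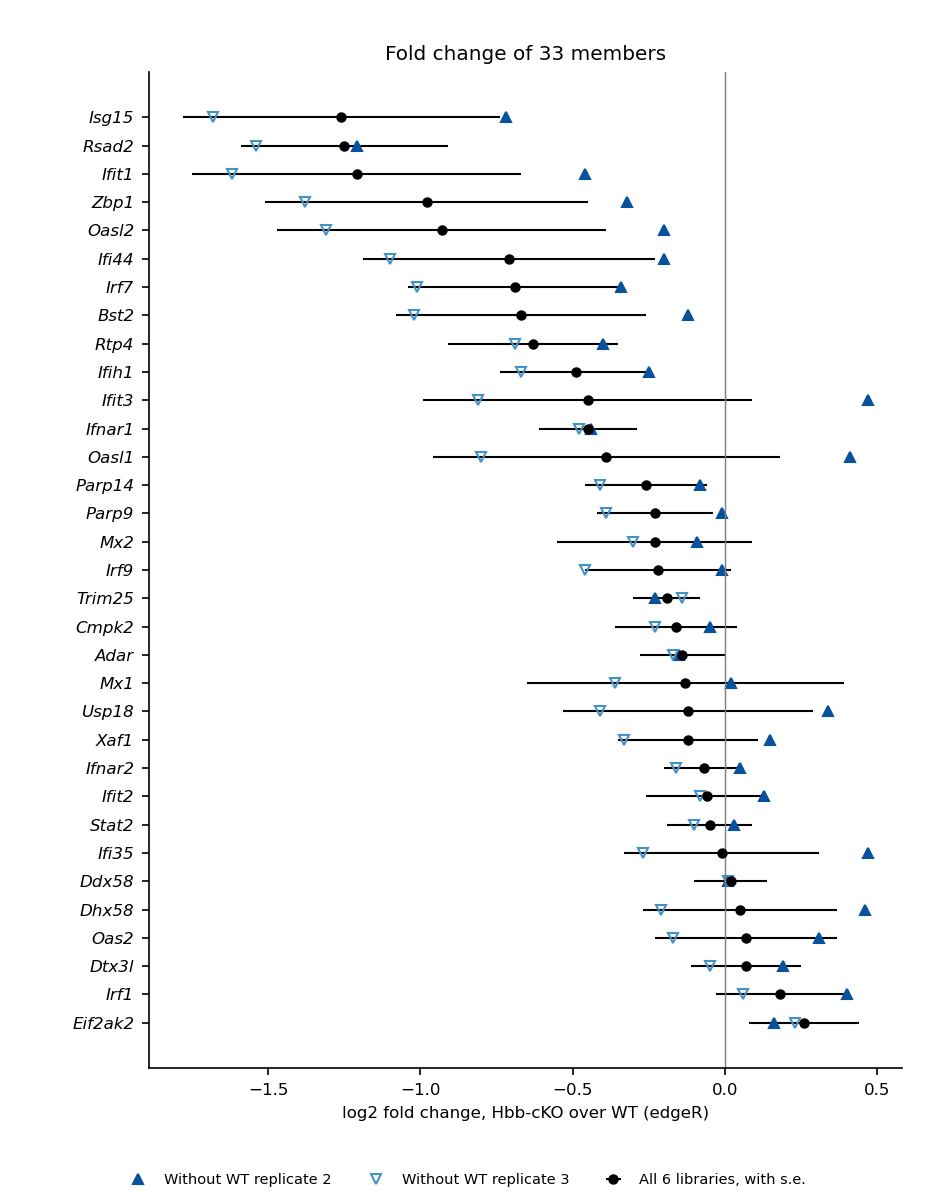
Log2 fold change of Hbb-cKO over WT from edgeR for 33 members, with its standard error (black points and bars), and the same fold change without WT replicate 2 (filled triangles) or without WT replicate 3 (open triangles). The median moves from -0.22 to -0.01 and to -0.39. Ifnar1 (-0.45, -0.44 and -0.48) moves little, while Rsad2 (-1.25, -1.21 and -1.54) moves little only without WT replicate 2.

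The receptor chains were expressed in every library. *Ifnar1* was measured at 79.0, 76.2 and 72.8 CPM in WT and 49.2, 47.1 and 70.1 CPM in *Hbb*-cKO. *Hbb*-cKO replicates 1 and 2 were well below WT, and replicate 3 was just under the lowest WT library. The log2 fold change was -0.45 (SE 0.16), with an adjusted p of 0.395 in edgeR. Without *Hbb*-cKO replicate 3 the log2 fold change became -0.66 with an adjusted p of 0.399 in edgeR, while DESeq2 gave an adjusted p of 0.00989 and called the gene, as it did for 0.379% of all genes in the lower direction. *Ifnar2*, its partner on the same strand of chromosome 16 (chr16:91372783-91405589, plus strand, and chr16:91485238-91507441, plus strand, for *Ifnar1*), overlapped between the genotypes, at 39.1, 44.8 and 33.7 CPM in WT and 40.1, 35.5 and 36.8 CPM in *Hbb*-cKO. For *Ifnar2*, 8.87% of 50-base windows of the transcript are shared with *Gm21970*, so part of its reads could be assigned elsewhere.

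Among the transcription factors, *Irf7* varied most and *Stat2* least. *Irf7*, which amplifies the interferon response and is itself induced by it, was at 8.80, 11.8 and 4.21 CPM in WT and 5.74, 5.31 and 4.29 CPM in *Hbb*-cKO. WT replicates 1 and 2 were above every *Hbb*-cKO library, but WT replicate 3 was below them all (log2 fold change -0.69, SE 0.35, edgeR adjusted p = 0.555). *Stat2* lay between 13.6 CPM in *Hbb*-cKO replicate 1 and 17 CPM in WT replicate 2 (log2 fold change -0.05), and *Irf9*, its partner in ISGF3, between 16.3 CPM in WT replicate 3 and 32.1 CPM in WT replicate 2 (log2 fold change -0.22). *Irf1*, a factor that also answers to interferon gamma, had a log2 fold change of 0.18 and was highest in *Hbb*-cKO replicate 2, at 13.7 CPM, with WT replicate 2 next, at 13.1 CPM.

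The sensors of nucleic acid fell into flat and variable genes. *Ddx58*, which encodes the RNA sensor RIG-I, was at 19.0, 17.6 and 18.2 CPM in WT and 18.7, 18.8 and 17.9 CPM in *Hbb*-cKO, the narrowest range of the members. *Zbp1*, which encodes a sensor of Z-form nucleic acid, was at 2.69, 5.05 and 1.04 CPM in WT and 1.99, 1.15 and 1.32 CPM in *Hbb*-cKO. WT replicates 2 and 3 were thus its extremes, and the genotypes overlapped (log2 fold change -0.98, SE 0.53, edgeR adjusted p = 0.584). *Ifih1*, the RNA sensor MDA5, had a log2 fold change of -0.49 and *Dhx58*, the related helicase LGP2, of 0.05, both with their highest level in WT replicate 2. *Eif2ak2*, the RNA-activated kinase PKR, had the largest positive log2 fold change, 0.26 (SE 0.18, edgeR adjusted p = 0.671), and was lowest in WT replicate 2, at 10.1 CPM, against 11.6 to 15.7 CPM in the other libraries. *Adar*, which edits double-stranded RNA, lay between 19.1 and 25.6 CPM, and 1365 of its exonic bases overlap *Chrnb2* on the opposite strand.

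*Isg15*, a ubiquitin-like protein that is attached to other proteins, had the largest log2 fold change of the members. It was at 9.52, 14.5 and 2.88 CPM in WT and 3.98, 4.11 and 3.16 CPM in *Hbb*-cKO. The *Hbb*-cKO libraries were close to each other, WT replicates 1 and 2 were above all of them and WT replicate 3 was below all of them. The log2 fold change was -1.26 (SE 0.52), with an unadjusted p of 0.0472 and an adjusted p of 0.491 in edgeR, and it was -0.72 without WT replicate 2 and -1.68 without WT replicate 3. *Usp18*, the protease that removes ISG15 and dampens receptor signalling, was at 2.58, 4.44 and 1.62 CPM in WT and 3.13, 3.16 and 1.65 CPM in *Hbb*-cKO, and its log2 fold change of -0.12 became 0.34 without WT replicate 2. *Trim25*, a ubiquitin ligase, lay between 31.5 and 40.9 CPM and was the only tested member whose highest library was WT replicate 3.

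**Figure D3:**
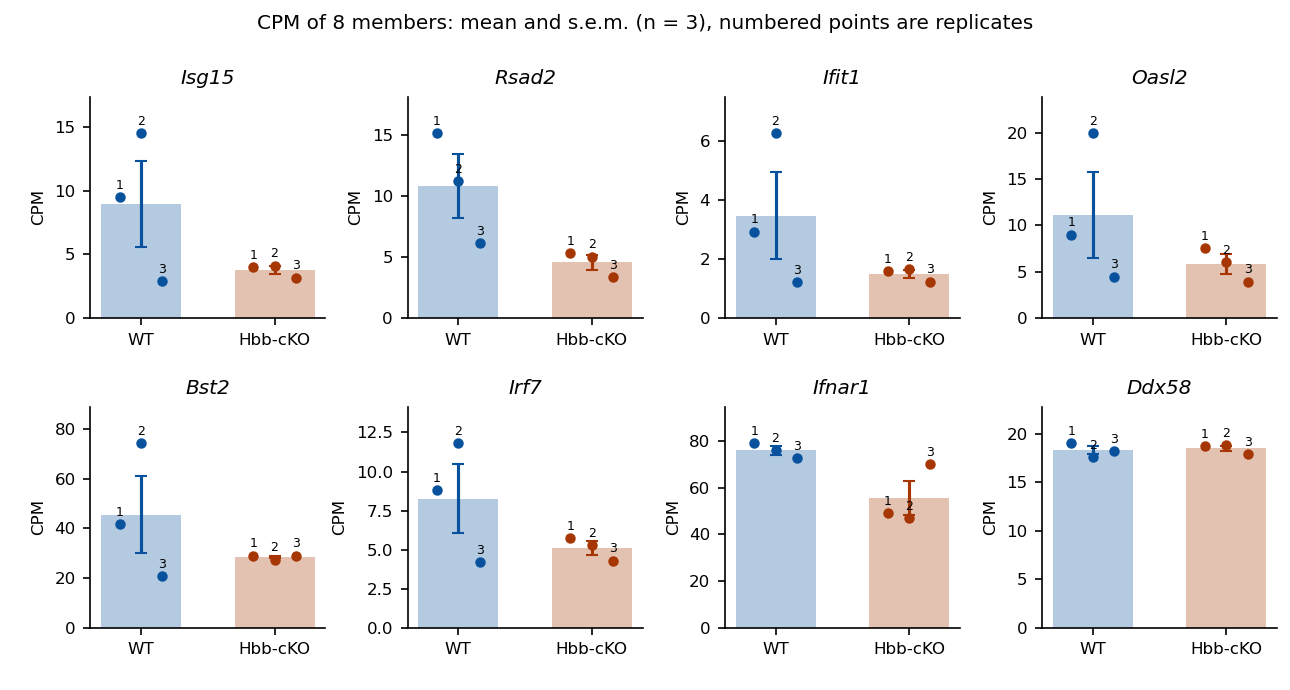
CPM of 8 members in each library (points, numbered by replicate) with the mean (bars) and s.e.m. (n = 3) of WT and Hbb-cKO; the axes start at 0. Isg15, Ifit1, Oasl2, Bst2 and Irf7 spread from replicate 3 to replicate 2 within WT (Isg15 from 2.88 to 14.5), Rsad2 and Ifnar1 do not overlap between genotypes, and Ddx58 stays between 17.6 and 19.0.

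The IFIT genes among the members, whose products bind foreign RNA, all lie on chromosome 19, and all 3 were highest in WT replicate 2. *Ifit1* (chr19:34640871-34650009, plus strand) was at 2.93, 6.26 and 1.21 CPM in WT and 1.59, 1.65 and 1.23 CPM in *Hbb*-cKO. WT replicate 2 was 3.63 times the mean of the other 5 libraries, the largest such ratio of the members. Its log2 fold change was -1.21 (SE 0.54, edgeR adjusted p = 0.506), and -0.46 without WT replicate 2. *Ifit3* (chr19:34583531-34588731, plus strand), at 4.19, 12.5 and 2.71 CPM in WT and 5.74, 4.71 and 3.77 CPM in *Hbb*-cKO, changed sign from -0.45 to 0.47 without that library, and 51.2% of its 50-base windows are shared with *Ifit3b*, so its count is uncertain. *Ifit2* varied less, with 1.57-fold between its highest and lowest library. The score over the 3 genes was 1.07 in WT replicate 2 and between -0.51 and -0.01 in the other libraries.

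The oligoadenylate synthetases make a small messenger that activates RNase L, and the OASL proteins are related to them. *Oasl2*, on chromosome 5 (chr5:114896936-114912234, plus strand), was at 8.98, 19.9 and 4.44 CPM in WT and 7.56, 6.01 and 3.92 CPM in *Hbb*-cKO. The highest library, WT replicate 2, was 2.22 times the next (log2 fold change -0.93, SE 0.54, edgeR adjusted p = 0.614, and -0.20 without that library). *Oasl1*, a translational inhibitor of *Irf7* encoded next to it, was at 1.56, 3.59 and 0.692 CPM in WT and 1.70, 1.8 and 0.944 CPM in *Hbb*-cKO, and its log2 fold change of -0.39 became 0.41 without WT replicate 2. *Oas2* lay between 2.54 and 5.11 CPM, with a log2 fold change of 0.07. The untested *Oas3* had 6, 5 and 4 counts in WT and 11, 9 and 9 counts in *Hbb*-cKO. Its 3 *Hbb*-cKO libraries were above its WT libraries, at a level where a few reads decide the order.

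*Rsad2*, which encodes the antiviral enzyme viperin, was the member with the smallest p. It was at 15.1, 11.2 and 6.12 CPM in WT and 5.29, 5.01 and 3.35 CPM in *Hbb*-cKO. Every *Hbb*-cKO library was below every WT library, and the highest library was WT replicate 1. The log2 fold change was -1.25 (SE 0.34), with an unadjusted p of 0.00668 and an adjusted p of 0.283 in edgeR, and DESeq2 gave an adjusted p of 0.0395. That DESeq2 call was lost when any single library other than WT replicate 3 was left out, with adjusted p-values of 0.0983 to 0.447, and was 0.000129 without WT replicate 3. With a covariate for Y-linked expression the log2 fold change was -0.57, with an edgeR adjusted p of 0.468. That covariate sets WT replicates 1 and 2 apart, so this value rests mostly on WT replicate 3 against *Hbb*-cKO. *Cmpk2*, a mitochondrial nucleotide kinase, starts head to head with *Rsad2* on chromosome 12 (chr12:26469204-26479837, plus strand, against chr12:26442746-26456452, minus strand) and ranged only from 5.95 to 9.30 CPM (log2 fold change -0.16), while *Rsad2* ranged 4.50-fold.

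The other antiviral effectors overlapped between the genotypes. *Bst2* (chr8:71534255-71537456, minus strand) was at 41.7, 74.2 and 20.8 CPM in WT and 29.0, 27.5 and 29.1 CPM in *Hbb*-cKO. Its *Hbb*-cKO libraries differed by less than 2 CPM, whereas WT spanned a 3.56-fold range (log2 fold change -0.67, SE 0.41, edgeR adjusted p = 0.642, and -0.12 without WT replicate 2). *Ifi44* was at 2.16, 3.34 and 0.808 CPM in WT and 1.25, 1.55 and 1.04 CPM in *Hbb*-cKO, again with WT replicates 2 and 3 at the ends. *Rtp4*, a chaperone of membrane receptors, had a log2 fold change of -0.63 (SE 0.28, edgeR adjusted p = 0.50), and 13.6% of its windows are shared with *Gm45338*. *Ifi35* and *Xaf1* had log2 fold changes of -0.01 and -0.12, with their highest level in WT replicate 2, at 25.5 and 20.7 CPM. The GTPase genes *Mx1* and *Mx2*, which GENCODE lists as polymorphic pseudogenes, stayed between 0.501 and 1.65 CPM, and *Mx1* was the only one of the 33 tested members with its highest level in *Hbb*-cKO replicate 1.

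The PARP9 group modifies proteins with ADP-ribose and ubiquitin. *Parp9* was at 16.3, 21.7 and 13 CPM in WT and 14.6, 14.0 and 14.9 CPM in *Hbb*-cKO, and *Parp14* at 14.0, 16.6 and 10.6 CPM and 13.1, 11.1 and 10.2 CPM. Both were highest in WT replicate 2, with log2 fold changes of -0.23 and -0.26. *Dtx3l*, the ubiquitin ligase that pairs with PARP9, lay between 6.46 and 9.07 CPM (log2 fold change 0.07). Exons of *Parp9* and *Dtx3l* overlap by 458 bases on opposite strands, and no source used here states the strand setting of the counting, so reads from these bases cannot be told apart.

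By role, the libraries were ordered alike in most groups. The score of WT replicate 2 was 0.24 for the receptors, 0.36 for the sensors and the PARP9 group, 0.45 for the transcription factors, 0.64 for the antiviral effectors, 0.72 for *Isg15*, *Usp18* and *Trim25*, 1.00 for the OAS genes and 1.07 for the IFIT genes, and was the highest of the 6 libraries in each group. WT replicate 3 was the lowest library in 6 of these 8 groups, the exceptions being the receptors, where it was 0.00, and the group of *Isg15*, where *Hbb*-cKO replicate 3 was at -0.47 and WT replicate 3 at -0.43. Beside the promoter motif, 6 of the 9 tested members with an ISRE core and 10 of the 15 tested members whose promoter lacked it were highest in WT replicate 2. The ratio of WT replicate 2 to the mean of the other libraries had a median of 1.68 (0.718 to 3.63) in the former and 1.33 (0.971 to 3.23) in the latter.

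The interferon genes themselves were at or near 0. Of 21 ligands of types I, II and III, 15 had no count in any library and 0 passed the filter. *Ifnb1* had 1 count in WT replicate 1, *Ifng* had 1 count in each of WT replicates 1 and 2, *Ifnab* had 3 counts in WT replicate 2, *Ifna7* had 2 counts in WT replicate 3 and *Ifnk* had 1 count in each of *Hbb*-cKO replicates 1 and 2. *Ifnz*, a mouse gene of the limitin type, had 4 counts in each WT library and 1, 9 and 6 in *Hbb*-cKO. A count of 0 allows up to 3 counts in a library of this depth, for counting error only.

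Genes around the receptor and upstream of interferon differed less between the libraries, with scores from -0.17 to 0.10. Of 16 tested signalling genes, 0 were called by edgeR and DESeq2 called 1, *Irf8*, a factor of the myeloid lineage, which was higher in *Hbb*-cKO at 10.6, 7.17 and 8.54 CPM against 4.49, 3.77 and 5.19 CPM in WT (log2 fold change 0.96, adjusted p = 0.0180 in DESeq2 and 0.191 in edgeR). The signalling score was 0.03 in WT replicate 2, where 6 of the 16 genes had their highest level. Neither edgeR nor DESeq2 called any of 18 genes of nucleic acid sensing upstream of interferon (0 at an unadjusted p under 0.05 in edgeR). Of these 18, 7 were highest in WT replicate 2, with a score of 0.07 there. Of 14 tested NF-kB targets, 0 were called by either tool (1 at an unadjusted p under 0.05 in edgeR, *Vcam1*), and *Hbb*-cKO replicate 1 had their highest score, 0.21, against 0.11 in WT replicate 2.

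Other interferon targets were often highest in WT replicate 2 as well. Of 48 further type I targets, 29 were highest in WT replicate 2, and the median log2 fold change was -0.13, which became -0.02 without that library. edgeR called 0 of them (6 lower at an unadjusted p under 0.05) and DESeq2 called 3, all lower in *Hbb*-cKO, namely *Isg20*, an exonuclease, *Ube2l6*, the enzyme that conjugates ISG15, and *Lgals3bp*, a secreted glycoprotein. *Ube2l6* was at 60.9, 42.4 and 24.5 CPM in WT and 9.21, 11.9 and 24.4 CPM in *Hbb*-cKO (log2 fold change -1.49, DESeq2 adjusted p = 0.0193, edgeR adjusted p = 0.350, and -1.48 without WT replicate 2). Its highest library was WT replicate 1, as for *Rsad2* and *Isg20*. Of 17 tested targets of interferon gamma, 16 were highest in WT replicate 2, with a score of 1.33 there, and the median log2 fold change of -0.71 became -0.18 without it. The GTPase gene *Tgtp1* was at 7.79, 31.0 and 1.15 CPM in WT and 1.42, 3.36 and 0.944 CPM in *Hbb*-cKO. Neither edgeR nor DESeq2 called a gene of that list, and *Irgm1* alone was lower at an unadjusted p under 0.05 in edgeR.

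Of 20 tested genes of class I histocompatibility and antigen processing, 18 were highest in WT replicate 2, and the median log2 fold change of -0.43 became 0.01 without it. edgeR and DESeq2 called 1 of them, *H2-Q1*, which was at 5.39, 6.69 and 2.88 CPM in WT and had no count in *Hbb*-cKO (edgeR adjusted p = 0.0346, and 0.0957 without WT replicate 2). Among 9 tested genes of the interferon-inducible Ifi200 family, both tools called *Ifi202b*, which had no count in WT and was at 8.64, 4.71 and 7.41 CPM in *Hbb*-cKO (edgeR adjusted p = 0.0191). Both genes belong to families of similar copies, whose reads can be split between members. Why each gene was without a count in every library of a genotype was not tested. None of the 34 members was present in one genotype and absent in the other, since all 34 had counts in all 6 libraries.

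**Figure D4:**
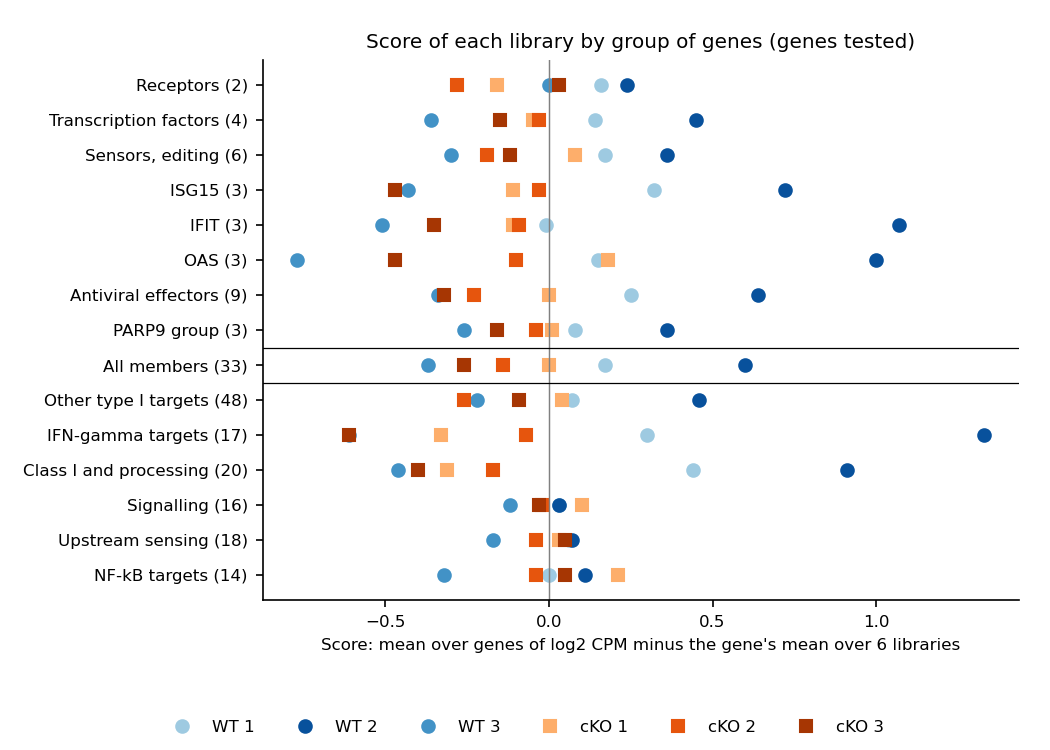
Score of each library (circles WT, squares Hbb-cKO) for the members by role, for all 33 members and for other lists, with the number of tested genes in brackets; the x axis is the mean over genes of log2 CPM minus the mean of the gene over 6 libraries. WT replicate 2 is highest in every group of members, up to 1.07 for IFIT, and reaches 1.33 for interferon gamma targets, while signalling stays between -0.12 and 0.10.

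Several measures moved with the score of WT replicate 2. Of 82 ribosomal protein genes, 79 were highest in that library, with a median deviation of 0.47 on the log2 scale, against -0.15 to 0.06 in the other libraries. Short transcripts were higher there, with a median deviation of 0.24 for 1539 genes with up to 1000 exonic bases and -0.19 for 2589 genes with more than 8000. Members were above these medians at most lengths: *Oasl2*, with 6374 exonic bases, deviated by 1.45 and *Ifi44*, with 6129, by 1.08, as did the short *Isg15* (756 bases) by 1.45 and *Bst2* (903 bases) by 1.13. After the trend on length had been removed from each library, the score was 0.18, 0.59 and -0.37 in WT and -0.01, -0.13 and -0.26 in *Hbb*-cKO, the median log2 fold change was -0.23, and edgeR called 0 members and 22 genes in all. Whether the shift of ribosomal protein genes has a part in the interferon score was not tested.

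**Figure D5:**
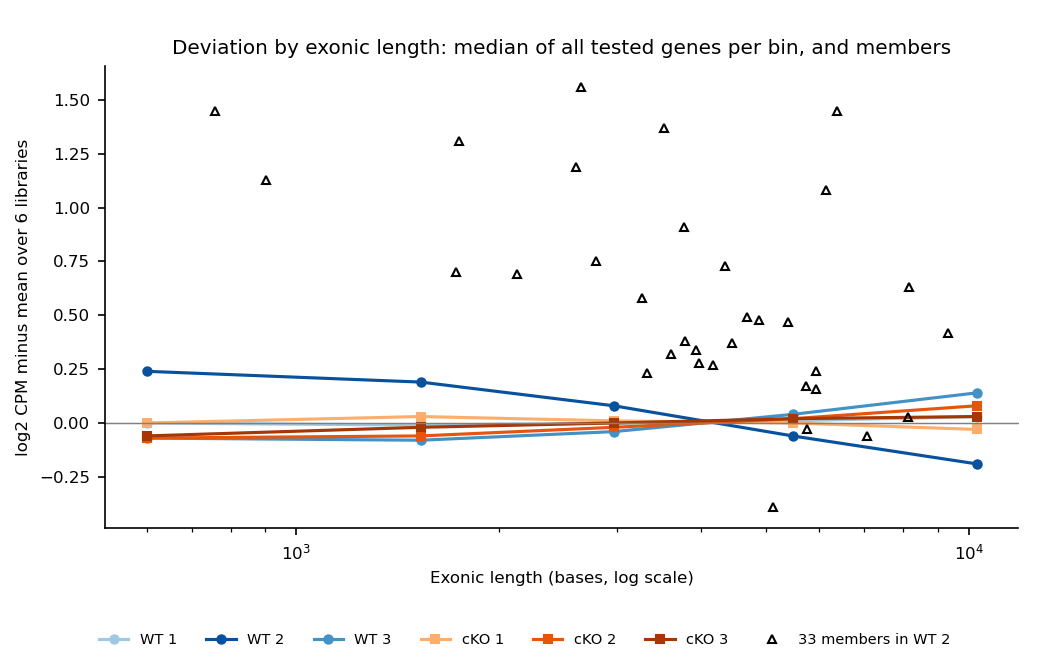
Median deviation of log2 CPM from the mean over 6 libraries for all tested genes in 5 classes of exonic length (lines, one per library, placed at the median length of the class on a log axis), with the 33 members in WT replicate 2 as triangles. The line of WT replicate 2 falls from 0.24 to -0.19, and most members lie above it.

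The 10 genes outside the set whose log2 CPM was most like the score, by Pearson's r over the 6 libraries among 14384 genes whose mean log2 CPM was 1 or more, were *Bsg*, *Rplp1*, *Mta3*, *Rpl41*, *Gm3379*, *Rps12-ps4*, *Rnh1*, *Lsm1*, *Gm4708* and *Fxyd5*, with r between 0.990 and 0.999. They include the ribosomal genes *Rplp1* and *Rpl41* and 3 processed pseudogenes, and none of them was in a list of interferon, signalling or cell type genes. The 6 points of each r share libraries and scaling factors with the score, so these values are a description.

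The libraries also differed in sex-linked genes and in the markers of other cells. WT replicates 1 and 2, with the highest scores, were the libraries without a Y-linked count. A covariate for Y-linked expression therefore leaves mostly WT replicate 3 to compare with *Hbb*-cKO. With the summed Y-linked log2 CPM as a covariate the median log2 fold change of the members was 0.14, with 24 positive and 9 negative members, and edgeR called 0 of them (smallest adjusted p = 0.359) and 48 genes in all. All 11 macrophage markers were tested, and they summed to 932, 1127 and 726 CPM in WT and 1045, 795 and 885 CPM in *Hbb*-cKO. WT replicates 2 and 3 were thus also the highest and the lowest library for this sum. Of the single markers, *Fcgr1*, *C1qa*, *C1qb*, *C1qc*, *Lyz2* and *Cd14* had that order. *Adgre1*, *Csf1r* and *Cd68* were highest in *Hbb*-cKO replicate 1, *Mertk* was highest in WT replicate 3 (46.7 CPM) and *Mrc1* was lowest in WT replicate 2 (78.8 CPM). All 10 neutrophil markers were tested, and they summed to 19.3 to 39.2 CPM in WT and 128, 27.9 and 108 CPM in *Hbb*-cKO, an order unlike that of the score. Of 5 markers of plasmacytoid dendritic cells, a main source of type I interferon, 1 was tested, *Pacsin1*, and it made up most of their sum of 3.47 to 7.96 CPM. The other 4 markers summed to 1.62, 0.912 and 0.519 CPM in WT and 0.796, 0.551 and 1.42 CPM in *Hbb*-cKO, too low to order the libraries. Of 7 T and NK cell markers, 0 were tested, and they summed to 0.981 to 3.13 CPM. The skeletal muscle list, 7 of 7 tested, was highest in WT replicate 3, at 42853 CPM against 21394 to 29000 CPM in the other libraries. The erythroid markers, with the targeted genes among them, had scores of 1.12, 0.54 and -0.23 in WT and -0.52, -0.58 and -0.32 in *Hbb*-cKO, with WT replicate 1 highest, which was also the highest library of *Rsad2*, *Isg20* and *Ube2l6*, and with every *Hbb*-cKO library below every WT library, as for *Rsad2*. No defining marker of these lists was at 0 in all libraries, and fewer cells of a type and less RNA per cell cannot be told apart in such tissue libraries. The part of these cells in the interferon score and in the difference of *Rsad2* was not tested.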

How the data were processed

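RNA from P6 knee cartilage was sequenced in 3 libraries per genotype. A table of whole-number counts per gene, not normalized, was deposited by the authors. The submitters' notes list HISAT2 2.1.0 and StringTie beside CASAVA 1.8, fastp 0.19.5 and edgeR, and no source used here gives settings, build or strand. Positions equalled GENCODE M21 (GRCm38) for 99.4% of 55227 matched identifiers, so members were described with that annotation.

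The members and all gene lists were chosen with earlier results of these data known. Named genes were every member, per list the called genes and up to 4 with the smallest p, *Hbb-bs* and *Hbb-bt*, and the 10 genes most like the score. *Ifnb1* and the other ligands with a count were named after their values were seen.

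Counts were filtered by edgeR's filterByExpr (minimum count 10, minimum total 15), scaled by TMM and tested by its quasi-likelihood method with robust dispersions (edgeR 4.0.16, R 4.3.3), with Benjamini-Hochberg adjustment over all genes tested and a threshold of 0.05. A prior count of 2 entered the log2 CPM. Alternatives were DESeq2 1.42.0, RLE factors, other filters, a replicate block, a Y-linked covariate and leaving out each library. An offset for exonic length and DESeq2 without each library were added after the data were seen, as was the look at ribosomal protein genes. The fits were checked on simulated counts. Same-numbered libraries share only a number. Depths of 16544800 to 20969914 counts limit precision for the members with the fewest reads, and limits from 0 counts cover counting error only.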

Additional observations from a re-analysis of the deposited data

How the results depend on the processing

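No member passed the threshold in edgeR under any alternative. DESeq2 called 1 on all libraries and 0 to 5 when leaving out a library. The members' median log2 fold change of -0.22 depended on WT replicate 2. Without that library it was -0.01, with 18 negative and 15 positive members. It was -0.39 to -0.17 under every other alternative except the Y-linked covariate (0.14). That covariate leaves mostly WT replicate 3 to compare with *Hbb*-cKO. The numbers do not pair the samples (same-number correlations -0.026, -0.108 and -0.029): with a replicate block the median was -0.19, calls over all genes fell from 18 to 4, and *Ifi35* became 0.10. Calls over all genes were 17 with RLE factors, 60 without a filter, 48 with the Y-linked covariate, 249 in DESeq2 and 1 (without WT replicate 1) to 39 (without WT replicate 3) when leaving out a library.

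When leaving out a library, 12 members changed sign, with log2 fold changes from -0.16 to 0.05 (*Ifnar2*), -0.13 to 0.03 (*Stat2*), -0.21 to 0.46 (*Dhx58*), -0.41 to 0.34 (*Usp18*), -0.20 to 0.13 (*Ifit2*), -0.81 to 0.47 (*Ifit3*), -0.17 to 0.31 (*Oas2*), -0.80 to 0.41 (*Oasl1*), -0.86 to 0.16 (*Mx1*), -0.27 to 0.47 (*Ifi35*), -0.33 to 0.15 (*Xaf1*) and -0.05 to 0.19 (*Dtx3l*). The scores moved by less than the spread between replicates with another prior count, RLE factors or the length offset. With 3 libraries per genotype, the spread between libraries limited the differences that could be detected. The cause of these shifts was not tested.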
